A study of Mus musculus with 32 samples.

Results

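Broad open domains are described here: stretches of open chromatin of at least 3000 bp in dendritic cells (DCs) of mouse skin-draining lymph nodes. Each of 32 Omni-ATAC-seq libraries came with the authors' own list of open-chromatin peaks. Stretches of the 19 autosomes that carried a peak in 3 or more of the 32 lists were taken as consensus regions, and those 3000 bp or wider as domains. The domains were thus chosen by measured width and not by the size of the peak signal. Signal below is summed over the peaks in a domain, so it is not independent of the length they cover. The rule kept 1270 domains of 88757 consensus regions (1.43%). They span 5.909 of 69.75 Mb of consensus sequence (8.47%). Width was measured in the same peak lists that are compared below, so widths are descriptions and are not tested. The same holds for the fact that a domain is wide in some cell type. The exception is the share of covered length in domains chosen in the other genotype's lists.

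The libraries are of 5 DC subsets from 4 genotypes. The 3 migratory subsets are migDC1 (source label CD103), migDC2 (CD11b) and DN migDC, which the labels also call CD11bCD103migDC3. The 2 resident subsets are cDC1 (CD8a) and cDC2 (CD11b). In 28 libraries both copies of Ifngr1, the gene of a chain of the interferon-gamma receptor, were floxed: 14 came from Cre-positive mice (CD11cCREpos/IFNgr1flfl, labelled Ifngr1 KO) and 14 from Cre-negative mice (CD11cCREneg/IFNgr1flfl, labelled Ifngr1 WT). Each subset had 3 Cre-positive and 3 Cre-negative libraries, except migDC1 with 2 and 2. A further 4 migDC2 libraries came from mice with the germline deletion (IFNgr1-/-, n = 2) or from wild-type mice (WT, n = 2). The Cre was driven by the promoter of CD11c, an integrin chain of DCs that some other leukocytes also carry, and no age, sex or treatment beyond the genotype is labelled. Nothing in the labels says that replicates were separate mice, so the p-values below measure the spread between these libraries only. The study asked how chromatin accessibility differs between the subsets and whether it depends on the interferon-gamma receptor.

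Most open regions of a genome are much less than a kilobase wide, the size of a promoter or an enhancer. In any cell type a small number of loci are open over several kilobases, often where many enhancers lie side by side at genes that the cell transcribes strongly or at genes of its identity. Conventional DCs present antigen on MHC class II molecules, which need the invariant chain Cd74 for loading. On maturation they raise Ccr7, the chemokine receptor that guides them through lymph, and the resident subsets of a lymph node have not made that journey.

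Promoter sequences of 6 genes whose domains carry the differences below are printed here, as RefSeq gives them for GRCm38.p6, 250 bases up to the base before the start site. Capitals mark matches to 5 letter patterns searched on both strands: a cyclic-AMP response element (CRE, TGACGTCA), an AP-1 site (TGANTCA), a gamma-activated sequence (GAS, TTCNNNGAA), an interferon-stimulated response element (ISRE, TTTC and after any 2 bases TTTC again) and the kB site of NF-kB. The first 3 lie in domains higher in migratory libraries, the next 2 in domains lower there, and Irf1 is the one domain that passed the genotype test. Fscn1 (chr5:142960105-142960354, plus strand) has a CRE beginning at base -45 from the start. Tnfaip3 (chr10:19015411-19015660, minus strand) has an AP-1 match at -136 and kB matches at -125 and -12. B2m (chr2:122147437-122147686, plus strand) has an ISRE at -139 and a kB match at -126. H2-Aa (chr17:34287824-34288073, minus strand) has a CRE at -74 and overlapping kB matches at -131 and -130. Fosb (chr7:19310046-19310295, minus strand) has a kB match at -188, and Irf1 (chr11:53769764-53770013, plus strand) a GAS at -90 and a kB match at -13.
Fscn1: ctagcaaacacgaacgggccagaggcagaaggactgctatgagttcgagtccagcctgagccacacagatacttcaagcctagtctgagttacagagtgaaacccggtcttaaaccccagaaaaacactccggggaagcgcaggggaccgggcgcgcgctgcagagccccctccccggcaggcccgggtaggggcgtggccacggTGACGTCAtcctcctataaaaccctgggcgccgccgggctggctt
Tnfaip3: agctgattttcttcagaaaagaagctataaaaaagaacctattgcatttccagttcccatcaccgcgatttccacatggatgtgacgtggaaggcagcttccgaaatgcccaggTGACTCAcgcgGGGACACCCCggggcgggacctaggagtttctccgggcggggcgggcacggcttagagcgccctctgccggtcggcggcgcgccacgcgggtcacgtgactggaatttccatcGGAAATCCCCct
B2m: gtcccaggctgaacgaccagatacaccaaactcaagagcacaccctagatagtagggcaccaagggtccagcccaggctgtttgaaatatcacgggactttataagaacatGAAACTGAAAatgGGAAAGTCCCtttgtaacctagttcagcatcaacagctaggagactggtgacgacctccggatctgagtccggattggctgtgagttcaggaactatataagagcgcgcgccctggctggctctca
H2-Aa: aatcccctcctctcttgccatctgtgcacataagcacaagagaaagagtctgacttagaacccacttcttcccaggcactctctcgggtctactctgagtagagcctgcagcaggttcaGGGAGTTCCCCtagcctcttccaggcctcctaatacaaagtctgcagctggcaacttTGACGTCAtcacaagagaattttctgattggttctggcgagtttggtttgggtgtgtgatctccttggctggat
Fosb: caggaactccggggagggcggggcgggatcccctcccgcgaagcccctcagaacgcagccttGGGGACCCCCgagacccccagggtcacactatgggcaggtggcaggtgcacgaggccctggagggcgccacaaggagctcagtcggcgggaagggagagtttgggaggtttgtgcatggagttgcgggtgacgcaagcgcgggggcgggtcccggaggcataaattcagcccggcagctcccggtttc
Irf1: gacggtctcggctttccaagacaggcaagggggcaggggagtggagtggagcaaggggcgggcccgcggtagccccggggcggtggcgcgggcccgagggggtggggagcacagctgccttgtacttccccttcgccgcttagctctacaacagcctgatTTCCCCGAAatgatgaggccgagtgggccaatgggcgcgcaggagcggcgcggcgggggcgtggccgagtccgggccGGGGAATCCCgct

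Such matches are short and frequent, and say nothing by themselves about binding. Among 1160 RefSeq start sites of 919 genes inside domains, scored over 250 bases before and 50 after the start, 9.14% of promoters held a kB match, against 4.57% of 31396 promoters of 25748 genes in the table. The share with an AP-1 match was 4.74%, against 7.84% of all promoters. A GAS match was in 5.78%, against 8.35%, an ISRE match in 2.67%, against 3.46%, and a CRE match in 2.5%, against 1.83%. Domain promoters also had a median GC content of 63.8%, against 53.0%, and a median of 23 CpG dinucleotides, against 7, so base composition differed along with the motifs. An ETS match (CCGGAAG) was in 10.6% of domain promoters, against 9.0%, and a CArG box, the site of serum response factor, in 2.16%, against 1.57%.

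The domains were few, wide and present in nearly every library. Their median width was 3716 bp, against 570 bp over all regions. There were 262 of at least 5000 bp, 56 of at least 10000 bp and 9 of at least 20000 bp. A peak lay in 1109 domains (87.3%) in all 32 lists, against 19570 (22.4%) of the 87487 narrower regions. In 1224 domains some list held a single peak of 3000 bp or more, and in 46 none did. At the median over libraries 513 domains held at most 1 peak, and the median domain held 2. The 5 members nearest to the limit from above overlap Vcl and Vps37c (3000 bp each), Klf9 (3001 bp), Lcor (3002 bp) and 1810013L24Rik (3003 bp). The nearest regions below it lie at Laptm5 and at Loxl3 (2997 bp each), Mideas and Clcf1 (2996 bp each) and Mapre2 (2995 bp), so the limit cuts a continuous range of widths.

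Domains lay mainly at genes. A protein-coding gene, or 1000 bp beside its ends, was touched by 1103 domains (86.9%), and 1187 coding genes (5.74% of 20665) touched one. A gene start listed in RefSeq's promoter table lay in 726 domains (57.2%), against 11.2% of narrower regions. The share moved with width: it was 56.0% of the 3397 regions of 2000 to 3000 bp and 33.7% of the 16188 regions of 1000 to 2000 bp. The table is not complete, and Ccr7, H2-Ab1 and Cd83, which have domains, are not in it. Several domains shared 1 gene in 141 cases. Cbfa2t3, a transcriptional corepressor, and Inpp5d, the phosphatase SHIP1, had 5 domains each. Tnfaip3, which encodes the NF-kB inhibitor A20, and Cytip, a regulator of integrin adhesion, had 4 each, and Nr4a3, Cd83, Etv3 and Il1r2 had 3 each. Where a gene has several domains they are numbered below along the chromosome, as in Fscn1 (2). Widths varied with the library: 227 to 910 domains had 3000 bp or more covered in a given library, 135 in all 32, and 42 in none, where peaks of different libraries were staggered.

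Before the comparisons, a difference between libraries that follows their titles has to be stated. Of the 32, 16 have plain numbered titles, 12 have lettered titles and 4 are the germline libraries. All 12 resident libraries are plain, all lettered ones are migratory, and only 4 floxed migratory libraries are plain (replicate 1 of migDC2 and of DN migDC in each genotype). What the titles stand for is not labelled. Repeat loci followed the titles. The 5S rRNA cluster of chromosome 8 held 9 domains of 82520 bp in all. Lettered and germline libraries had 0 bp of peaks there, plain migratory libraries 42353 to 58404 bp and resident libraries 55839 to 81917 bp. A cluster of tRNA genes on chromosome 1, with 3 domains of 14270 bp, had 0 to 354 bp covered in lettered libraries, 0 bp in germline ones, 10459 to 11483 bp in plain migratory and 11905 to 13805 bp in resident ones. In 40 domains all peaks came from plain-titled libraries, 22 of them at no coding gene. Among the rest of the 40, domains at Wdfy4, Tmem132a and Nr4a1 also had no peak in the 4 plain migratory libraries. Near-identical copies of the repeat loci share reads, so the values of these loci are uncertain. Which cell type the repeat loci differ by cannot be told apart from the title. The counts over domains and the results on several of the members are therefore also given within the 16 plain libraries (4 migratory, 12 resident). Each of these 4 migratory libraries is alone in its subset and genotype, and migDC1 has no plain library. In limma fits within plain titles the spread thus comes from the resident libraries alone. Their adjusted p-values and counts of calls measure no spread among migratory libraries.

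Marker genes were read in each subset to check the labels. In summed signal near their genes, the 7 migratory DC markers reached 1881.2 to 2679.1 ppm (1 ppm is 1e-06 of a library's summed autosomal peak signal) in migratory libraries, against 472.0 to 656.0 ppm in resident ones. The cDC1 list was highest in cDC1 (1319.9 to 1710.2 ppm) and next in migDC1 (1140.5 to 1204.9 ppm), and the cDC2 list highest in cDC2 (964.6 to 1232.6 ppm). Within them, Irf8 and Itgae had higher means in migDC1 (242.2 and 132.0 ppm) than in cDC1 (122.3 and 105.3 ppm). Irf4 and Sirpa were higher in migDC2 (74.6 and 264.4 ppm) than in cDC2 (54.0 and 261.0 ppm). The other genes of both lists were highest in the list's own resident subset. Wdfy4, Il1r2, Ccr7 and Fscn1 carried much of their lists' sums and have domains, so this check shares values with results below. Of the lists of B, T, NK, plasmacytoid, monocyte, neutrophil and stromal genes, only the B cell list had a domain, at Cd79a and Arhgef1. The B cell list summed to 164.3 to 262.3 ppm in DN migDC, 107.2 to 200.6 ppm in the other migratory libraries and 111.6 to 168.7 ppm in resident ones. Their part in the differences was not tested. These are bulk libraries, in which fewer open cells and less open chromatin per cell cannot be told apart. The targeted gene gives no check of the genotypes: Ifngr1 has no domain, and and the widest of its 4 narrower regions (1847 bp) had 58.4, 70.5 and 101.0 ppm (lowest, median, highest) in Cre-positive libraries, against 57.8, 71.3 and 105.4 ppm in Cre-negative ones.

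The share of a library's peak signal that lay in the domains was lower in floxed migratory libraries than in resident ones. In migDC1 it was 10.26% and 10.27% in Cre-positive and 10.71% and 10.50% in Cre-negative libraries. It averaged 11.06 ± 0.66% in migDC2, 10.87 ± 0.574% in DN migDC, 11.68 ± 0.53% in cDC1 and 13.49 ± 0.613% in cDC2 (SD, n = 6 each). All 6 cDC2 libraries (12.69 to 14.31%) lay above all 16 floxed migratory ones (9.99 to 11.94%), while cDC1 (11.06 to 12.62%) overlapped migDC2 and DN migDC. Migratory libraries averaged 10.83 ± 0.572% (n = 16) and resident ones 12.59 ± 1.09% (n = 12). The difference was -1.752 percentage points (exact permutation over libraries within genotype, p = 1.32e-05, adjusted over 4 tests p = 5.28e-05). Within plain titles it was -1.101 points (exact permutation p = 0.0931), with the 4 plain migratory libraries at 11.49 ± 0.534% and the 12 lettered ones at 10.62 ± 0.402%. The part of the title in this difference cannot be told apart from that of the cells. The domains were chosen by width in these same lists, so the p-values here give no support independent of that choice. The same holds for the test of signal per covered base below.

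The length covered by domain peaks moved the same way. Domains took 9.75 ± 0.443% of the peak length of migratory libraries and 10.91 ± 1.26% of that of resident ones. Within the resident cells, cDC2 (11.88 ± 0.914%) stood above cDC1 (9.94 ± 0.638%). In absolute terms 2.817 to 3.845 Mb of domain sequence lay in peaks in migDC1, 4.128 to 5.092 Mb in migDC2, 3.782 to 4.594 Mb in DN migDC, 3.392 to 4.786 Mb in cDC1 and 3.963 to 5.001 Mb in cDC2. The 32 lists held 32088 to 73627 peaks. Floxed migratory lists held 44263 to 73627, cDC1 lists 49815 to 68217 and cDC2 lists 37812 to 55102. Germline KO lists held 32088 and 41759 and WT ones 35262 and 35997. The part of list length in the shares was not separated from that of the cells. Signal per covered base, relative to the whole library, was 1.111 ± 0.0278 in migratory and 1.157 ± 0.0354 in resident libraries (difference -0.046, exact permutation p = 0.00106, adjusted p = 0.00213; within plain titles -0.013, exact permutation p = 0.495). Domains chosen in Cre-negative libraries alone (873) and measured in Cre-positive ones, which had no part in choosing them, held 8.265 ± 0.344% of the signal of migratory (n = 8) and 9.757 ± 0.929% of that of resident libraries (n = 6; difference -1.493, exact permutation p = 0.00133). With the roles exchanged (896 domains) the shares were 8.279 ± 0.567% and 9.643 ± 1.03% (difference -1.364, exact permutation p = 0.00566). For the share of covered length the differences were -0.895 points (exact permutation p = 0.0253) and, with the roles exchanged, -0.688 points (exact permutation p = 0.125). The choosing and the measured libraries were of the same subsets. A domain chosen through 1 subset can thus be wide in that subset again, and these tests do not remove that. In the 245 domains chosen in the 4 germline lists alone, all of migratory cells, the difference between migratory and resident floxed libraries was 0.016 points (exact permutation p = 0.877). The germline KO libraries had 13.33% and 13.75% of their signal in the 1270 domains, and the WT ones 14.13% and 14.10%. These migDC2 libraries thus lay in the range of cDC2 (12.69 to 14.31%). They stood above every floxed migratory library (highest 11.94%) and every cDC1 library (highest 12.62%).

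**Figure D1:**
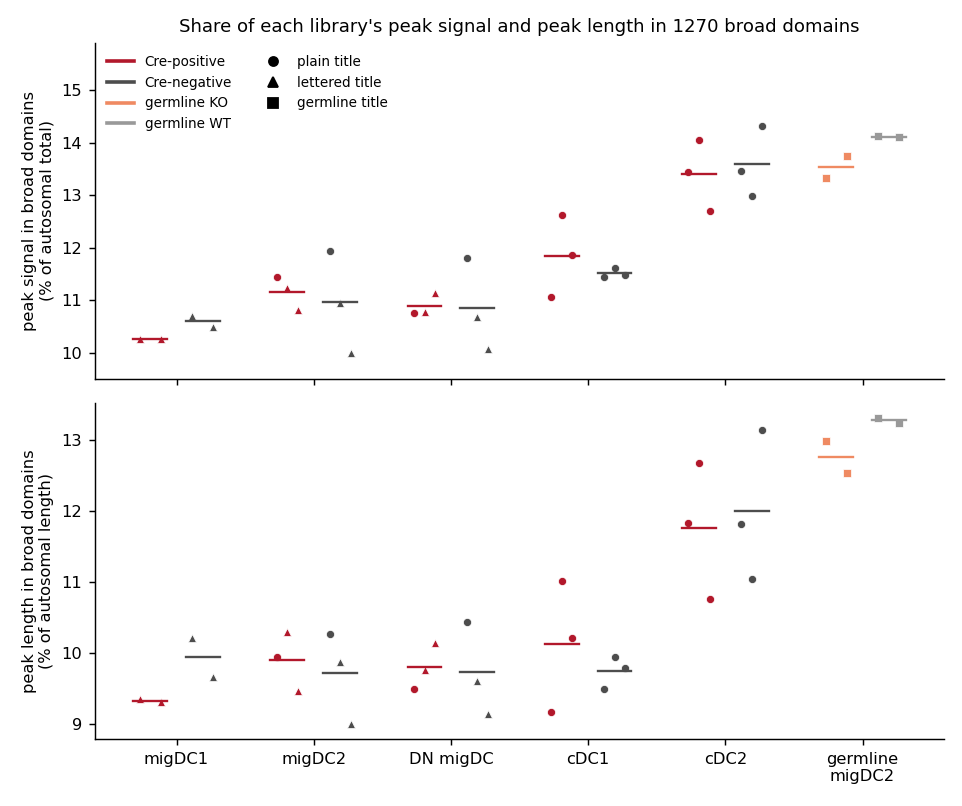
Share of each library's summed peak signal (top) and of its summed peak length (bottom) that lay in the 1270 domains, in % of the autosomal total, by subset and genotype. Each symbol is a library (circle, plain title; triangle, lettered; square, germline), bars are group means, and the cDC2 libraries (12.69 to 14.31% of signal) stand above the floxed migratory ones (9.99 to 11.94%).

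Which cells held a domain wide open varied. A mean of 3000 bp or more was covered in all 5 subsets in 273 domains (21.5%), and 191 of these (70.0%) held a gene start. Resident cells alone reached that mean in 88 domains (38, or 43.2%, with a gene start) and migratory cells alone in 49 (21, or 42.9%). cDC2 alone did so in 65, among them domains at Il1r2, Fosl2, Plaur, Per1 and Nr4a1, and cDC1 alone in 60, among them domains at Wdfy4. The migratory-only set includes both domains of Fscn1, Cacnb3, Mreg (1), Irf1 (2) and Arc. In migDC1 alone only 3 domains reached it, at Irf8, at Plat and Ap3m2, and at 1 intergenic site. The subset with the most domains of that mean length was migDC2 (677), followed by cDC2 (647), cDC1 (601), DN migDC (509) and migDC1 (379). A domain wide in 1 group passed the width rule through that group, so these counts describe the rule's outcome.

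Signal in each region was compared by limma on log2(ppm + 5) over all 88706 regions tested, with Benjamini-Hochberg adjusted p-values. The addition of 5 ppm makes a fitted difference smaller than the true one for weak regions. Between migratory and resident cells, 331 of 1270 domains were higher (26.1%) and 768 lower (60.5%) in migratory cells. Over all regions tested, 33.8% were higher and 37.9% lower. The median log2 difference was -0.22 over domains and -0.03 over all regions. On that scale 100 domains (7.87%) were at least 2-fold higher and 134 (10.6%) at least 2-fold lower, against 9.51% and 3.15% of all regions. When libraries were scaled by the median ratio to a common profile in place of total signal, 400 domains were higher and 675 lower, and the median was -0.13, with 31794 of all 88706 regions higher and 30886 lower. Within plain titles 292 domains were higher and 529 lower, and 20643 of 78402 regions higher and 17672 lower. For a member with no peak in 1 or more libraries on 1 side of a comparison, the difference is given below without a test, since it owes its place to the other side. The counts over domains and gene lists still include such members. The excess of lower calls was not particular to domains: 59.9% of regions of 2000 to 3000 bp were lower and 22.2% higher, against 47.0% and 31.8% at 1000 to 2000 bp and 34.3% and 35.0% under 1000 bp. Of 726 domains with a gene start 463 were lower (63.8%) and 157 higher (21.6%); of 544 without one 305 were lower (56.1%) and 174 higher (32%).

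**Figure D2:**
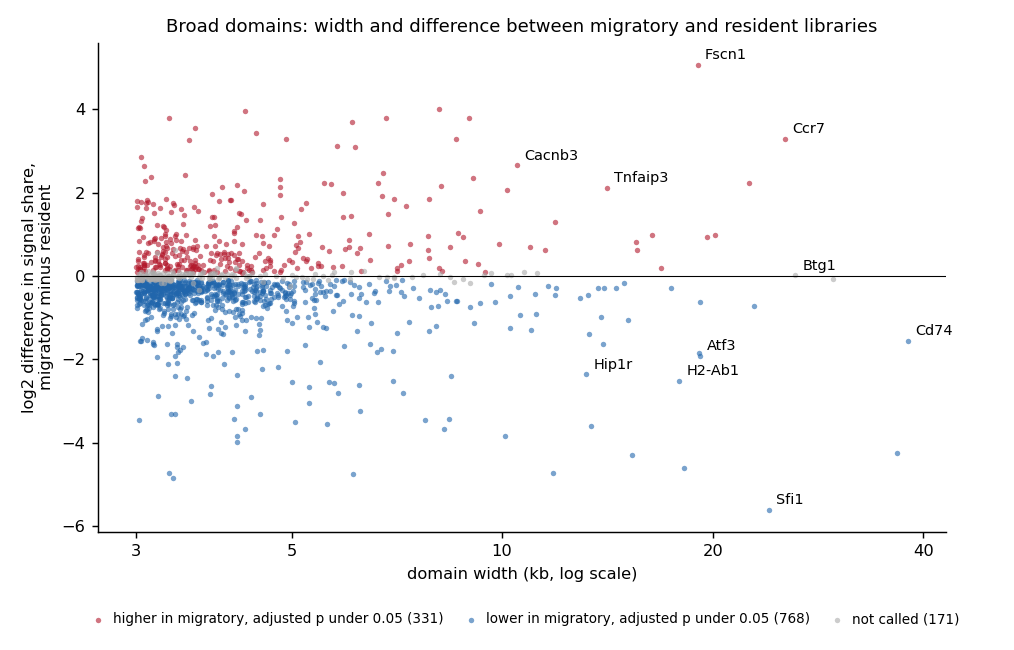
Fitted difference between migratory and resident cells (log2(ppm + 5), y axis) against domain width (kb, log axis) for 1270 domains. Red marks the 331 domains higher in migratory cells, blue the 768 lower and grey the 171 that did not pass; the wide domains of Fscn1 and Ccr7 lie far above 0 and that of Cd74 far below it.

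The widest domain of the series was that of Cd74, and it was lower in migratory cells. It spans 38036 bp on chromosome 18 (60802753 to 60840788, mm10), over the whole body of Cd74 and 76.7% of the body of its neighbour Tcof1, and was found in all 32 lists. Of the length of the domain, 71.1% lies over Tcof1 and 23.1% over Cd74. Signal was 336.6 and 349.9 ppm in Cre-positive and 307.2 and 457.7 ppm in Cre-negative migDC1 libraries. The means were 702.6 ± 55.1 ppm in migDC2, 899.6 ± 104.9 in DN migDC, 1679.6 ± 121.7 in cDC1 and 1929.7 ± 200.9 in cDC2 (SD, n = 6 each). Migratory libraries (lowest 307.2, median 708.2, highest 1016.7 ppm) did not overlap resident ones (1588.2, 1821.5 and 2156.1 ppm). The log2 difference was -1.55 (SE 0.07, limma adjusted p = 6.11e-17), and within plain titles -1.16 (adjusted p = 4.17e-05). The domain was also narrower there: 12322 to 20702 bp were covered in migDC1, 28642 to 35065 bp in migDC2 and 28913 to 34940 bp in DN migDC, against 35333 to 38025 bp in cDC1 and 36663 to 38036 bp in cDC2. The germline KO libraries had 701.9 and 1085.2 ppm, and the WT ones 968.7 and 1038.1 ppm.

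The domain of Ccr7 went the other way. It covers 25403 bp of chromosome 11 (99130267 to 99155669), the whole 10879 bp gene body and sequence beyond both of its ends, most of it on 1 side. Signal was 768.7 and 756.0 ppm in Cre-positive and 874.1 and 900.4 ppm in Cre-negative migDC1, with means of 780.3 ± 43.4 ppm in migDC2, 827.0 ± 87.1 in DN migDC, 54.9 ± 8.8 in cDC1 and 114.1 ± 28 in cDC2. Every migratory library (666.7 to 915.0 ppm) stood above every resident one (44.3 to 164.0 ppm). The log2 difference was 3.29 (SE 0.07, limma adjusted p = 9.13e-23; within plain titles 3.17, adjusted p = 1.71e-07). Peaks covered 19184 to 25216 bp in migratory libraries, 2555 to 4545 bp in cDC1 and 5173 to 12606 bp in cDC2, so the resident cells were open over a fraction of the domain.

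**Figure D3:**
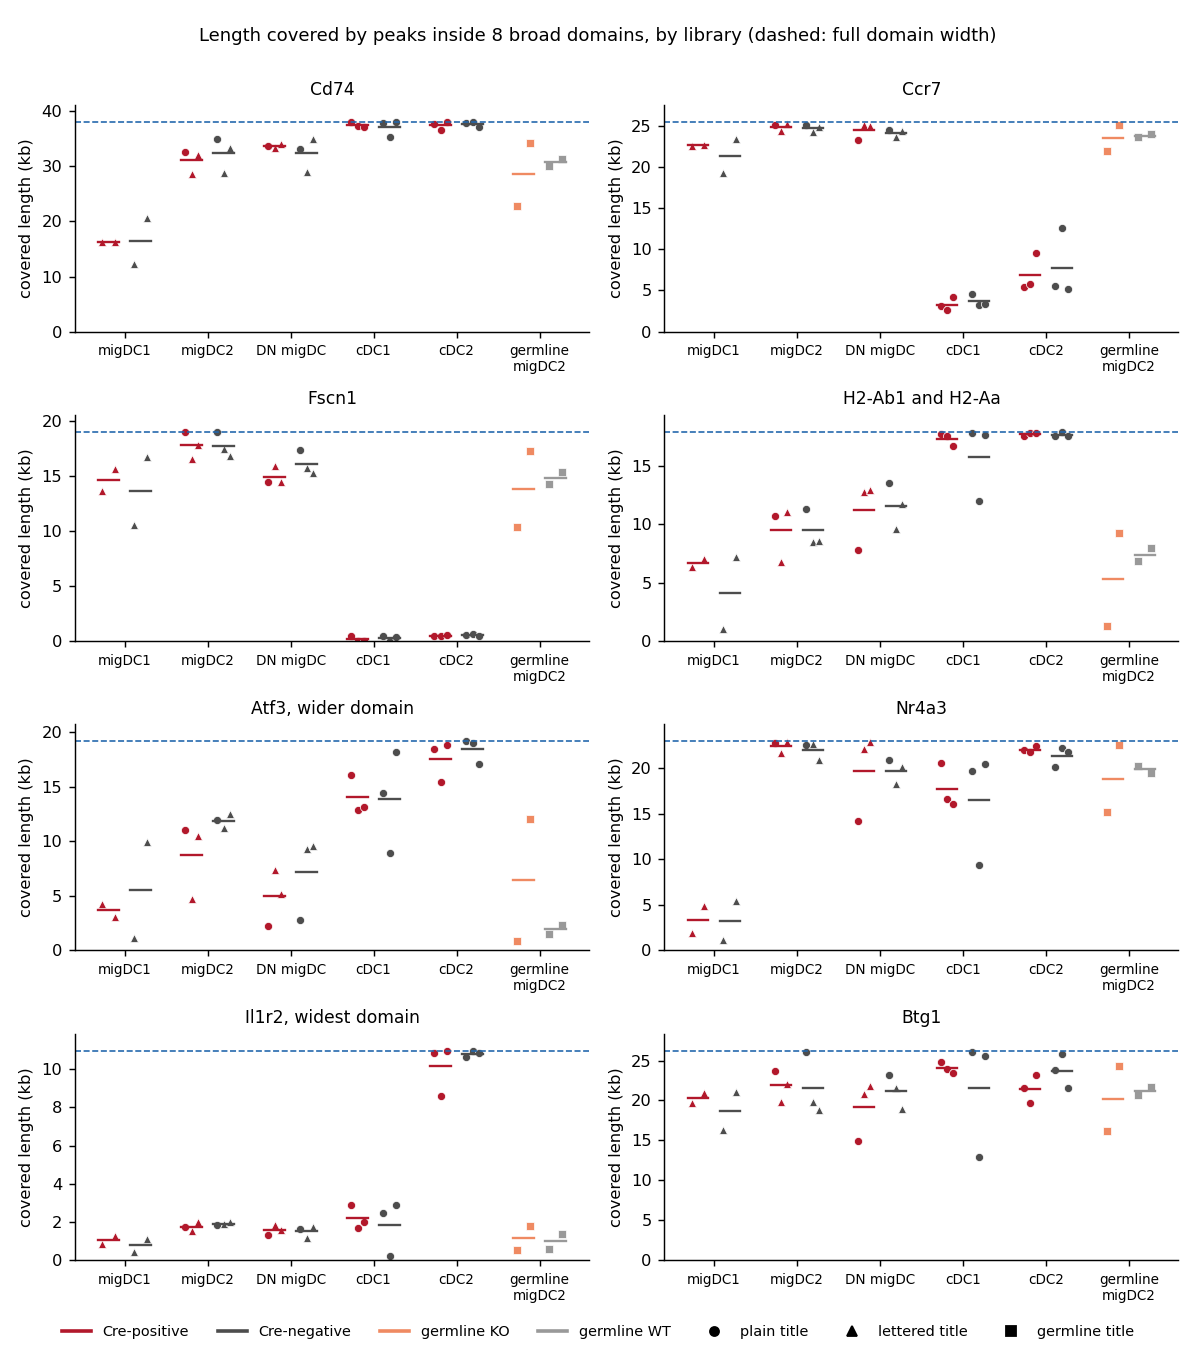
Length covered by peaks (kb) in each library for 8 domains, by subset and genotype; the dashed line is the full width of the domain. Cd74 and the domain between H2-Ab1 and H2-Aa are covered less in migratory libraries, Ccr7 and Fscn1 (2) more, and Il1r2 (3) is covered over 8597 bp or more in cDC2 only.

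Several other wide domains were higher in migratory cells. Fscn1 encodes fascin, which bundles actin in the processes of mature DCs. Fscn1 (2), 19033 bp over the end of the gene and beyond (chromosome 5, 142967249 to 142986281), had 219.3, 289.2 and 386.2 ppm (lowest, median, highest) in migratory libraries, against 0, 4.7 and 10 ppm in resident ones (log2 difference 5.06). Fscn1 (1), 8589 bp, holds the start whose sequence is printed above and differed by 3.29. Cacnb3, a calcium-channel subunit gene, had 220.4, 238.1 and 285.9 ppm over 10506 bp, against 21.2, 35.4 and 57.0 ppm (2.66). Tbc1d4, a regulator of vesicle traffic, had a domain of 22509 bp that was open in cDC2 as well (224.9 ± 63.1 ppm) and weak in cDC1 (29.4 ± 18.8 ppm); migratory libraries had 202.2, 416.8 and 501.6 ppm (2.24, SE 0.19, adjusted p = 1.62e-10). Within plain titles Fscn1 (2) differed by 5.1, Cacnb3 by 2.62 and Tbc1d4 by 2.2 (adjusted p = 0.00252).

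Other wide domains differed less. The 26245 bp domain of Btg1, an antiproliferative gene, had 285.0, 457.6 and 579.8 ppm in migratory and 327.7, 461.9 and 518.4 ppm in resident libraries, and the ranges overlapped (0.03, SE 0.08, adjusted p = 0.771). The 29724 bp domain of the noncoding RNA Malat1 differed by -0.08 (adjusted p = 0.144). The actin genes parted: Actg1 (19176 bp) was lower in migratory cells (-0.63, SE 0.04, adjusted p = 2.08e-12) and Actb (16875 bp) slightly higher (0.19, SE 0.04, adjusted p = 0.000394; within plain titles 0.13, adjusted p = 0.0977). Of 14 domains of 11 ubiquitously active genes none was higher and 12 were lower (median -0.33). Of 14 domains of 11 leukocyte and actin genes 2 were higher and 11 lower (median -0.36). Under median ratio scaling 1 domain of the ubiquitous genes was higher, with 12 lower. Over all 1270 domains 26.1% were higher and 60.5% lower (median -0.22).

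Some of the widest domains differed mainly between titles. A 36640 bp domain on chromosome 6 over a cluster of predicted genes (Gm40369 to Gm40363) and a 4.5S RNA gene had 20.9 to 948.0 ppm in migratory libraries and 896.3 to 1601.3 ppm in resident ones. All lettered libraries were near the bottom of that range, and the log2 difference of -4.25 (adjusted p = 1.14e-06) was -0.47 within plain titles (adjusted p = 0.0396). Sfi1 (1), 24097 bp over a gene with near-identical copies, differed by -5.6 and within plain titles by -1.13 (adjusted p = 0.000862). Copies of such loci share reads, and their values are uncertain.

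MHC class II loci were lower in migratory cells almost throughout. Of the 16 genes of class II presentation 8 had domains, 11 in all, of which 10 were lower and none higher (median -1.02; 1 higher and 9 lower under median ratio scaling; 9 lower within plain titles). The 17906 bp domain between and over the ends of H2-Ab1 and H2-Aa, the chains of I-A (chromosome 17, 34267005 to 34284910), had 16.1, 100.6 and 178.4 ppm in migratory libraries, against 334.7, 501.6 and 681.0 ppm in resident ones (-2.51, SE 0.2, adjusted p = 2.01e-11; within plain titles -2.08, adjusted p = 3.29e-07). Every migratory library lay below every resident one. Covered length was 1063 to 13492 bp in migratory and 11955 to 17860 bp in resident libraries. The 3534 bp domain that holds the H2-Aa start printed above was also lower (-1.02, SE 0.05, adjusted p = 5.47e-15). H2-Eb1, a chain of I-E, had domains at -1.38 and -1.1, and the peptide-exchange genes H2-DMb2, H2-DMb1 and H2-DMa had domains at -0.7, -1.02 and -0.44. Of the length of the H2-DMa domain, 80.9% lies over the neighbour gene Brd2 and 42.6% over H2-DMa. Ifi30, a lysosomal thiol reductase, had a 7012 bp domain that did not pass (-0.03, adjusted p = 0.495).

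MHC class I loci were higher or did not pass. Of the 17 genes 7 had domains, 6 in all, with 3 higher and none lower (median 0.33; 6 higher under median ratio scaling). B2m, the light chain of class I, had a 5134 bp domain with 91.0, 117.4 and 146.1 ppm in migratory libraries, against 53.8, 64.6 and 78.9 ppm in resident ones (0.82). The heavy-chain loci H2-K1 (11513 bp) and H2-D1 (10966 bp) differed by 0.62 (SE 0.05, adjusted p = 1.89e-10) and 0.7 (SE 0.06, adjusted p = 3.32e-11); they are similar in sequence, so reads may be split between them. The domains at the peptide transporter gene Tap2 (-0.01, adjusted p = 0.9), the loading factor Tapbp (0.0, adjusted p = 0.964) and the proteasome activator Psme2 (0.03, adjusted p = 0.592) did not pass. Of the length of the Tapbp domain, 76.0% lies over the neighbour gene Rgl2 and 17.5% over Tapbp.

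The maturation list had 32 domains at 20 of its 44 genes, of which 28 were higher in migratory cells and 1 lower (26 and 1 within plain titles). Over all 1270 domains 26.1% were higher and 60.5% lower. The median difference of the list was 1.64, and 1.49 without the 5 domains listed at 0 in every resident library. Through migratory cells alone these met the width rule, and they are among the 32 domains counted. Those 5 include Mreg (1), an 8137 bp domain of the melanosome transport gene melanoregulin. Ankrd33b (3), 6106 bp, had 121.2, 138.6 and 158.7 ppm in migratory and 0, 4.9 and 25.0 ppm in resident libraries (3.68). The costimulatory gene Cd40 differed by 0.82 (SE 0.04, adjusted p = 1.34e-14) and Cd86 by 0.51 (SE 0.05, adjusted p = 6.94e-09), and the checkpoint ligand gene Cd274 by 0.91 (SE 0.08, adjusted p = 7.03e-11). Cd83 (3), a 19655 bp domain of the maturation marker gene, had 218.3, 367.1 and 471.9 ppm, against 122.2, 198.7 and 242.8 ppm (0.92, SE 0.12, adjusted p = 2.62e-07). The 1 lower member was Birc3 (2) (-0.41, adjusted p = 1.21e-07), of an inhibitor of apoptosis, whose other domain, Birc3 (1), was higher (1.66, adjusted p = 1.97e-13).

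Several narrower domains were open in migratory or in resident cells and had little or no peak in the others. Il21r, the receptor gene of interleukin-21, had a 3639 bp domain inside the gene (chromosome 7, 125622077 to 125625715) with 38.2, 52.7 and 71.9 ppm in migratory libraries, and was listed at 0 in all 12 resident ones. Mxd1 (1), 4292 bp at the gene of a MYC antagonist, had 41.4, 67.9 and 131.7 ppm and was listed at 0 in every resident library. At Plat and Ap3m2 a 3335 bp domain had 47.3, 81.8 and 133.4 ppm, against 0, 1.4 and 5.8 ppm (3.78). A domain lower in migratory cells was at Ddx39a and Adgre5, the gene of the adhesion receptor CD97, with 0, 0 and 4.1 ppm in migratory libraries, against 16.5, 28.9 and 38.3 ppm in resident ones (-2.64). Domains at Cyth4 (-1.61), Amz1 (-1.38), Cln8 (-1.41) and the ETS factor gene Fli1 (-1.19) were lower too, and those at Vsig10 (2.18) and Iffo2 (2) (1.75) higher.

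Domains at NF-kB genes were mostly higher in migratory cells. Of 21 domains at 12 of 22 listed genes, 15 were higher and 3 lower (median 0.54; 12 and 2 within plain titles). Nfkbia, the gene of the inhibitor IkB-alpha, had a 15532 bp domain with 467.7, 641.7 and 773.7 ppm in migratory libraries, against 283.6, 359.9 and 432.5 ppm in resident ones (0.81, SE 0.05, adjusted p = 4.26e-14). Every migratory value lay above every resident one. The 14114 bp domain that begins at the end of Tnfaip3, Tnfaip3 (1), had 79.4, 194.4 and 251.9 ppm, against 8.6, 42.6 and 80.8 ppm (2.12, SE 0.15, adjusted p = 4.71e-12), and the highest resident library reached just above the lowest migratory one. Tnfaip3 (4), with the start printed above, differed less (0.41, SE 0.05, adjusted p = 4.59e-08). Traf1 (1), at the gene of a TNF-receptor adaptor, differed by 2.23. The domains of Nfkb2, the p100 gene, did not pass (0.11, adjusted p = 0.181, and -0.06, adjusted p = 0.253). The lower ones were at Nfkbid with Hcst (-0.45), Nfkbie with Hsp90ab1 (-0.29) and Traf3 (-0.27).

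Domains at AP-1 and BATF genes were mostly lower in migratory cells, where 60.5% of all domains were lower. Of 17 domains at 11 of 17 AP-1 and BATF genes none was higher and 14 were lower (median -0.38; 13 lower within plain titles; 2 higher and 13 lower under median ratio scaling). The domain over Fosb, 13858 bp, had 143.4, 166.6 and 251.7 ppm in migratory libraries, against 298.7, 342.3 and 387.4 ppm in resident ones (-0.98, SE 0.05, adjusted p = 5.88e-15; within plain titles -0.97, adjusted p = 6.05e-07). The 19175 bp domain at Fam71a and the 3' part of Atf3, a stress-induced factor, had 14.1, 68.0 and 103.2 ppm, against 107.2, 247.9 and 357.7 ppm (-1.91, SE 0.26, adjusted p = 3.42e-07), while the 10285 bp domain at the Atf3 start did not pass (0.03, adjusted p = 0.503). Jun did not pass (0.02, adjusted p = 0.684), and Junb (-0.28) and Jund (-0.25) were lower by little. Of 53 domains at 34 of 38 immediate-early and stress-response genes, a list drawn up after the widest domains had been seen, 11 were higher and 32 lower (median -0.28). That is near the shares of all domains (26.1% higher and 60.5% lower, median -0.22). Nr4a1 (2), at an orphan nuclear receptor gene, was listed at 0 in every floxed migratory library, the 4 plain ones included, and averaged 20.4 ppm in cDC1 and 43.3 ppm in cDC2. Klf6 (2) (2.16), Zfp36l1 (1.73) and Gadd45b (0.77) were higher.

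Transcription factor genes of DC identity were divided: of 26 domains at 18 of 28 genes 15 were higher and 10 lower (10 and 8 within plain titles). Etv3, a repressor of the ETS family, had 3 domains, all higher (0.65, 3.1 and 2.36). Id2 (1) was higher (1.13) and Runx1 (-0.99), Runx3 (-0.6) and Spi1, the gene of PU.1 (-0.36), lower. Irf4 differed by 0.42 (adjusted p = 6.01e-06). Of the interferon-gamma list 5 of 30 genes had domains, 6 in all, with 4 higher and 1 lower. Irf1 (2) differed by 1.68, Irf1 (1) by 0.42, Socs1, an inhibitor of the receptor's kinases, by 0.63 and Cd274 by 0.91. The receptor chain gene Ifngr2 was at -0.29 and Jak2 at 0.06 (adjusted p = 0.17). The direction of the median of each list named here was the same under median ratio scaling, scaling to all chromosomes, lists of equal length, summit values, a larger added constant and within plain titles.

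Comparing like with like, migDC1 with cDC1, 341 of 1263 domains were higher (27.0%) and 613 lower (48.5%), against 29.4% and 42.6% of all regions tested. The 11 class II domains gave 1 higher and 9 lower, with Cd74 at -2.21 (SE 0.11, adjusted p = 3.34e-15) and H2-DMb1 at -1.86 (adjusted p = 1.49e-09). The maturation list gave 27 higher and 2 lower and the NF-kB list 16 and 2. Ccr7 differed by 3.8 (SE 0.12, adjusted p = 7.48e-19) and Fscn1 (2) by 5.45. The widest Nr4a3 domain (22937 bp inside this nuclear receptor gene) stood apart in migDC1: 25.8 and 44.7 ppm in Cre-positive and 21.2 and 50.6 ppm in Cre-negative migDC1 libraries, against 178.1 ± 33.4 ppm in cDC1 (n = 6). Its log2 difference there was -2.22 (SE 0.22, adjusted p = 2.02e-09). The other subsets were at 364.4 ± 62.8 ppm (migDC2), 296.6 ± 91.6 ppm (DN migDC) and 375.4 ± 43.6 ppm (cDC2). Domains at Csrnp1, an immediate-early gene (-2.13, adjusted p = 4.21e-07), and Cytip (1) (-2.94, adjusted p = 1.62e-09) were also lower in migDC1 than in cDC1, and differed by -0.19 (adjusted p = 0.52) and -0.21 (adjusted p = 0.469) between migDC2 and cDC2; whether the contrasts differ from each other was not tested. All migDC1 libraries are lettered and all cDC1 ones plain, so for these subsets cells and title cannot be told apart.

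The opposite pattern, a domain strongest in migDC1, was seen near Irf8, the transcription factor of the cDC1 lineage. That 4143 bp domain had 60.7 and 46.5 ppm in Cre-positive and 67.0 and 66.4 ppm in Cre-negative migDC1 libraries. The means were 20.6 ppm in migDC2, 14.8 in DN migDC, 24.2 ± 5.1 in cDC1 and 3.1 in cDC2. The difference from cDC1 was 1.16. Domains at Wdfy4, a gene that mouse cDC1 need for cross-presentation, were open in resident cDC1. The 5488 bp one just beyond the gene's end (chromosome 14, 32954105 to 32959592) had 75.3, 89.5 and 66.0 ppm in Cre-positive and 86.0, 60.0 and 78.9 ppm in Cre-negative cDC1. It was listed at 0 in all migratory libraries, migDC1 included, and in 5 of 6 cDC2 libraries, with 2.9 ppm in the other.

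Between migDC2 and cDC2, 265 of 1262 domains were higher (21%) and 753 lower (59.7%), whereas 39.3% of all regions tested were higher and 28.9% lower. The medians were -0.28 over domains and 0.1 over all regions. The direction of the domains followed width again: 61.7% of regions of 2000 to 3000 bp were lower and 20% of those under 1000 bp. Median ratio scaling moved the split to 366 higher and 586 lower, with a median of -0.1. The direction over all regions depended on the setting: within plain titles 216 domains were higher and 525 lower, with 7073 of 50474 regions higher and 11481 lower, and with lists of equal length 296 domains were higher and 642 lower, with 12757 of 39159 regions higher and 15214 lower. All 10 class II domains that passed were lower, the maturation list gave 26 higher and 2 lower, and the AP-1 list 15 lower and none higher. The NF-kB list gave 8 higher and 5 lower. The Nr4a3 domain did not pass (-0.05, adjusted p = 0.83). Hip1r with Vps37b, an endocytosis locus, had 14.2 ± 1.5 ppm in migDC2, against 199.2 ± 16.9 ppm in cDC2 (-3.41). Clic4 (3), 20146 bp in a chloride-channel gene, was higher in migDC2 (165.7 ± 37.9 ppm, against 25.7 ± 4.7 ppm in cDC2; 2.46, SE 0.36, adjusted p = 1.8e-06). Tmem132a was listed at 0 in every migratory library and averaged 36.2 ± 8.1 ppm in cDC2.

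**Figure D4:**
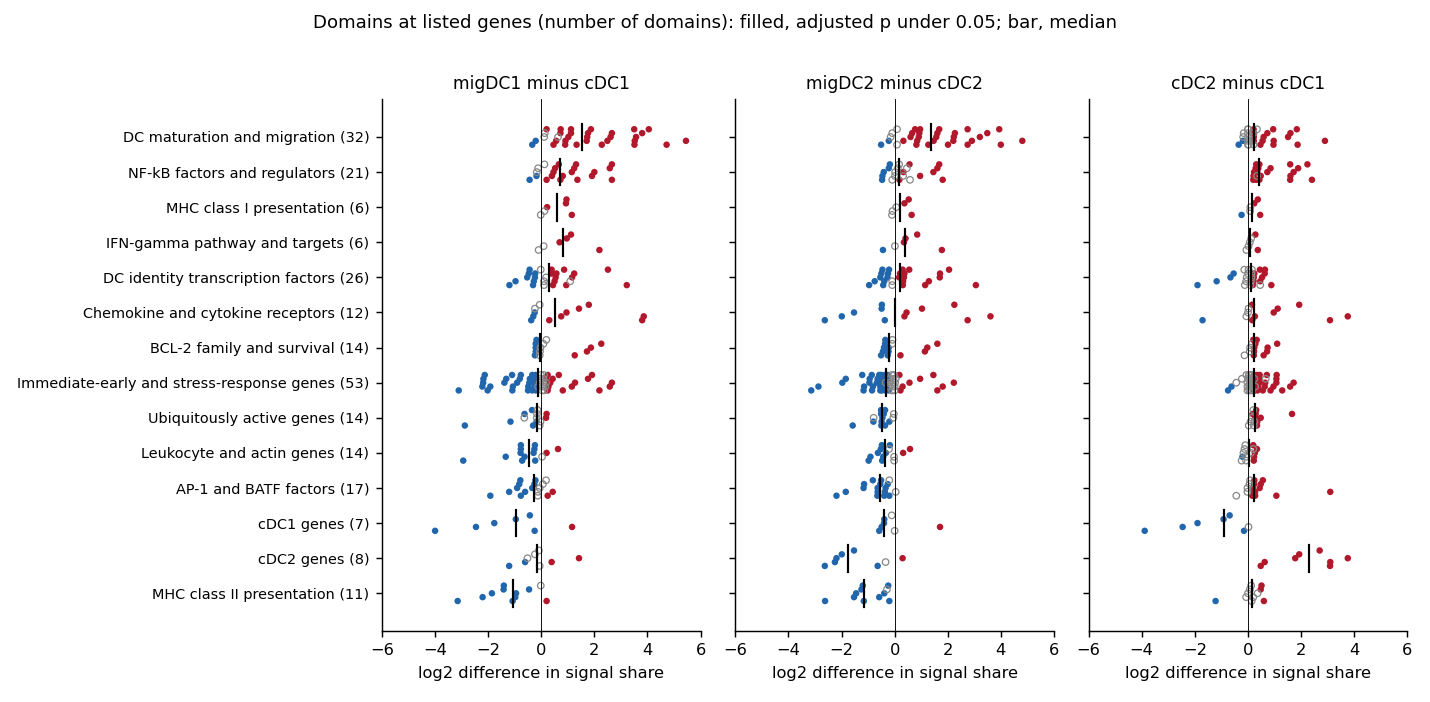
Fitted differences (log2(ppm + 5)) of the domains of 14 gene lists for migDC1 against cDC1, migDC2 against cDC2 and cDC2 against cDC1; each point is a domain, filled where the adjusted p is under 0.05, and the bar is the list's median. Class II domains lie below 0 and maturation domains above it in the first and second panels, and cDC2 genes above 0 in the last.

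Between the resident subsets the domains leaned to cDC2: 603 of 1251 were higher in cDC2 (48.2%) and 140 lower (11.2%), while 22.2% of all regions tested were higher and 36.4% lower. The lean depended on the scaling: median ratio scaling gave 347 higher and 256 lower, and lists cut to equal length 424 and 168. Over all regions the counts were 9670 higher and 26662 lower by median ratio scaling, and 10299 and 9887 with equal length. The median was 0.18 with total scaling and 0.03 with median ratio scaling. All 12 libraries here have plain titles. The domains of cDC2 genes gave 8 of 8 higher and those of cDC1 genes 6 of 7 lower. Il1r2 (1), Il1r2 (3) and Fosl2 (2) reached a mean of 3000 bp in cDC2 alone, and domains at Wdfy4 in cDC1 alone. Such members passed the width rule through the subset where they are high, so these counts are partly set by the choice of domains. Il1r2, the decoy receptor of interleukin-1, led. Il1r2 (3), 10982 bp across the end of the gene (chromosome 1, 40121526 to 40132507), had 236.6, 179.8 and 221.1 ppm in Cre-positive and 214.3, 212.6 and 280.0 ppm in Cre-negative cDC2, against 28.1, 20.9 and 28.7 ppm in Cre-positive and 25.7, 6.4 and 30.7 ppm in Cre-negative cDC1. The difference was 3.09, and Il1r2 (1) differed by 3.76. In migDC2 the domain Il1r2 (3) was at 31.8 ± 1.9 ppm, against 224.1 ± 33.1 ppm in cDC2 (-2.63). Sirpa, a surface marker of cDC2, differed by 2.7 and Fosl2 (2) by 3.1.

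The NF-kB list had 20 of 21 domains higher in cDC2 and none lower, and 16 under median ratio scaling. The small domains at Rel and Malt1 were listed at 0 in all cDC1 libraries, and the wide one at Pus10 and Rel differed by 1.59 (adjusted p = 1.61e-05). The AP-1 list had 12 higher and none lower, but 5 higher and 2 lower under median ratio scaling. Domains lower in cDC2 included Wdfy4 (-3.89), Flt3 (1), at the gene of the cytokine receptor that DC development needs (-1.71, adjusted p = 1.29e-14), Zc3h12c (-2.23), Ece1 (-1.97), Irf8 (-1.9) and Id2 (1) (-1.18). 4932438H23Rik (3) was listed at 0 in all cDC2 libraries and averaged 61.9 ± 10.9 ppm in cDC1. Class II domains did not share 1 direction here: Cd74 was at 0.2 (adjusted p = 0.0873) and H2-DMb1 at -1.22 (adjusted p = 5.39e-07). The medians of the class II, identity-factor, interferon-gamma and leukocyte lists changed sign between total and median ratio scaling, so no direction is given for them.

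DN migDC and migDC2 differed in few domains. Of 1247 domains 27 were higher in DN migDC (2.17%) and 98 lower (7.86%), against 5.78% and 9.49% of all regions tested. No domain was 2-fold higher and 5 were 2-fold lower (0.401%), against 0.202% and 0.528% of all regions tested. Tcirg1 with Ndufs8, a proton-pump subunit gene and a respiratory-chain gene, had 51.9, 51.2 and 46.8 ppm in Cre-positive and 41.5, 53.4 and 58.4 ppm in Cre-negative DN migDC, against 76.8, 99.7 and 92.3 ppm in Cre-positive and 75.6, 109.2 and 99.4 ppm in Cre-negative migDC2 (-0.8, SE 0.1, adjusted p = 8.26e-06). The groups did not overlap. Exoc3l4 was at 67.0 to 84.9 ppm in DN migDC and 98.3 to 110.9 ppm in migDC2 (-0.44, SE 0.05, adjusted p = 4.16e-06). Mrpl39, with a 3853 bp domain inside a mitochondrial ribosomal protein gene, had 8.7 to 25.6 ppm in DN migDC and 38.8 to 60.6 ppm in migDC2 (-1.31), and was listed at 0 in every resident library. Cyfip2, an actin regulator, was higher in DN migDC (50.6 to 55.1 ppm, against 36.1 to 46.4 ppm; 0.31, SE 0.05, adjusted p = 0.000293), as was Cd74 (0.35, SE 0.1, adjusted p = 0.0159; within plain titles 0.18, adjusted p = 0.733). The number higher depended on single libraries: it was 49 without migDC2 Cre-negative 1, 9 without migDC2 Cre-negative 2, 12 without migDC2 Cre-positive 2, 11 without migDC2 Cre-positive 3, and 14 without migDC2 Cre-negative 3 or without DN migDC Cre-negative 1. The number lower was 62 without migDC2 Cre-positive 2 and 61 without migDC2 Cre-negative 2.

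Few domains differed between Cre-positive and Cre-negative cells. Over all subsets the share of signal in domains differed by 0.007 percentage points (exact permutation p = 0.973, adjusted p = 0.973) between Cre-positive and Cre-negative libraries, and signal per covered base by 0.005 (exact permutation p = 0.638, adjusted p = 0.851). By limma 1 of 1270 domains passed, lower in Cre-positive cells, where 0.0755% of all regions did in either direction; 57 domains had an unadjusted p under 0.05 (4.49%). The median size of the log2 difference was 0.034, against 0.392 between migratory and resident cells, and 1 domain differed by 0.5 or more, against 522. Within subsets no domain passed by limma: of 1192 in migDC1 (0.216% of all regions passed; 39 domains with unadjusted p under 0.05), 1223 in migDC2 (0.0937%; 7), 1220 in DN migDC (0.127%; 17), 1237 in cDC1 (1.04%; 43) and 1236 in cDC2 (0.119%; 15). No domain passed the test of whether the genotype difference itself differs between migratory and resident cells (0.0237% of regions; 16 domains with unadjusted p under 0.05).

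The domain that passed was Irf1 (1), 4053 bp around both RefSeq starts of Irf1 (chromosome 11, 53768133 to 53772185), an interferon-gamma target and transcription factor. It had 113.4 and 107.3 ppm in Cre-positive and 141.6 and 129.0 ppm in Cre-negative migDC1. In migDC2 the values were 98.8, 98.0 and 95.6 ppm in Cre-positive and 97.8, 121.6 and 97.6 ppm in Cre-negative libraries, and in DN migDC 87.2, 80.5 and 86.9 ppm in Cre-positive and 102.9, 94.0 and 90.2 ppm in Cre-negative ones. Resident cDC1 had 65.1, 67.0 and 70.9 ppm in Cre-positive and 82.2, 88.9 and 72.8 ppm in Cre-negative libraries, and cDC2 had 74.5, 75.4 and 73.9 ppm in Cre-positive and 77.4, 83.6 and 85.1 ppm in Cre-negative ones. In every subset but migDC2 all Cre-positive values lay below all Cre-negative ones. The pooled log2 difference was -0.18 (SE 0.04, limma adjusted p = 0.039). The call did not hold in 23 of 52 alternatives, with differences of -0.21 to -0.1, among them plain titles alone (-0.15, adjusted p = 0.108) and leaving out any of 18 single libraries (adjusted p 0.0549 to 0.104). The germline libraries had 120.0 and 128.1 ppm in KO and 143.5 and 141.6 ppm in WT (-0.19, SE 0.09, adjusted p = 0.461).

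The neighbouring domain, Irf1 (2), 7298 bp at and beyond the gene's end (chromosome 11, 53777465 to 53784762), did not pass but had a larger difference (-0.37, SE 0.11, adjusted p = 0.502). It had 98.7 and 98.4 ppm in Cre-positive and 150.7 and 143.1 ppm in Cre-negative migDC1. In migDC2 it had 64.9, 85.5 and 79.9 ppm in Cre-positive and 94.9, 141.8 and 91.1 ppm in Cre-negative libraries, and in DN migDC 32.8, 42.0 and 48.7 ppm in Cre-positive and 55.7, 84.0 and 69.0 ppm in Cre-negative ones. In these 3 subsets, and also in cDC2, the genotypes did not overlap, while in cDC1 they did. Resident cells were low in both: 22.4, 26.4 and 20.9 ppm in Cre-positive, against 27.3, 13.6 and 27.3 ppm in Cre-negative cDC1, and 22.3, 19.3 and 20.4 ppm in Cre-positive, against 27.5, 23.9 and 24.1 ppm in Cre-negative cDC2. The test of a difference between migratory and resident cells in this effect gave -0.49 (SE 0.23, adjusted p = 1). Germline KO libraries had 43.4 and 113.1 ppm and WT ones 99.8 and 144.5 ppm.

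**Figure D5:**
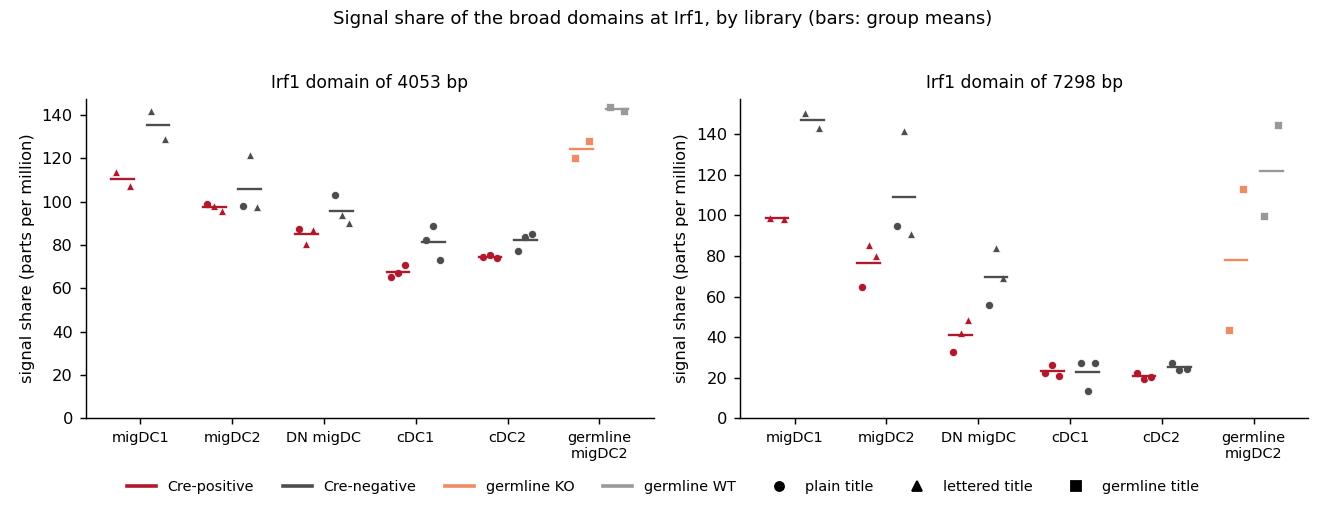
Signal (ppm of a library's autosomal peak signal) of both Irf1 domains in each library, by subset and genotype. Cre-positive libraries lie below Cre-negative ones in most subsets, and Irf1 (2) is strongest in Cre-negative migDC1 (150.7 and 143.1 ppm).

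Between the germline KO and WT migDC2 libraries, 2 of 1196 domains passed, 1 in each direction (0.118% of all regions passed; 67 domains with an unadjusted p under 0.05, by limma). Arhgef10 had 40.2 and 45.6 ppm in KO, against 61.2 and 66.7 ppm in WT (-0.53, SE 0.1, adjusted p = 0.0248). Ahnak (2), at the gene of a large scaffold protein, had 47.3 and 49.4 ppm in KO, against 33.7 and 24.1 ppm in WT (0.67, SE 0.13, adjusted p = 0.0247). With 2 libraries a side these rest on a spread estimated from all 12 groups.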

How the data were processed

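Omni-ATAC-seq, which inserts sequencing adapters into open chromatin with the Tn5 transposase, was run by the authors on 32 libraries of sorted DCs. Per the submitters' processing notes the tools were Bowtie2, deepTools and Genrich and the build mm10; their versions and settings, and any shift of read ends for the transposase, are unknown here. The deposited narrowPeak lists hold 1 library each. The authors' peak signal (column 7, lowest value just above 200) and its −log10 p-value were used as deposited; the lists hold no read counts, so sequencing depth is unknown and no counting interval or detection limit can be given. Longer lists (32088 to 73627 autosomal peaks) hold more weak peaks.

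Peaks on the 19 autosomes were merged into consensus regions of at least 100 bp covered by at least 3 lists. For each region and library, covered length and summed peak signal were computed, a peak that crosses a region's edge counting in proportion to its overlap, and signal was expressed as ppm of the autosomal total. log2(ppm + 5) was fitted by limma 3.58.1 (R 4.3.3; trend, empirical Bayes) with 12 groups and 20 residual degrees of freedom; regions with a peak in at least 3 compared libraries were tested and an adjusted p under 0.05 (Benjamini-Hochberg over all regions tested) was called. Subsets and genotypes were weighted equally in a contrast. The genotype tests within subsets, in the germline libraries and between migratory and resident cells were added later. The 4 tests of a single value over libraries were exact two-sided permutations. Python 3.11.15, numpy 2.4.6, pandas 2.3.3 and scipy 1.17.1 were used, and the scripts were tested on simulated data. Genes and promoters came from RefSeq (GRCm38.p6); a domain was given to each gene within 1000 bp.

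The members and the 21 gene lists were chosen with earlier results of these data known. Named were Cd74 and Ccr7, the genes of the 15 widest domains, up to 8 called domains a direction and comparison in order of adjusted p, and up to 5 examples a list; other domains named for a list or a neighbour were chosen after their values were seen. Alternatives were other width, overlap and signal limits, equal list length, other scalings and added constants, subsets of libraries, domains chosen in other libraries, and leaving out each library.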

Additional observations from a re-analysis of the deposited data

Results flagged for a closer look

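In groups of 4 to 10 libraries, a value stood apart when its gap to the nearest other library took most of the group's range (Dixon's 95% limit), which chance gives in about 1 in 20 groups. The length covered in the Cd74 domain met this in both of these libraries: it was 28913 bp in DN migDC Cre-negative 2, with the other 5 DN migDC libraries at 33233 to 34940 bp, and 35333 bp in cDC1 Cre-negative 2, with the other 5 cDC1 libraries at 37247 to 38025 bp. Signal in the domain was 746.7 ppm in that DN migDC library and 1636.4 ppm in that cDC1 library.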

How the results depend on the processing

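Of 88 results on named domains, 61 kept their direction and their side of the threshold under every alternative that gave them a value (50 to 55 each; 32 left out 1 library). The plain titles are numbered through, but the numbers 1 to 4 recur in the lettered titles of migDC1, migDC2 and DN migDC. With that number as a replicate block, DN migDC against migDC2 gave 21 higher and 33 lower domains in the lettered libraries, against 24 and 47 without the block. Over domains, differences between the numbers 1 and 3 (Cre-negative) correlated at 0.49 between DN migDC and migDC2 and those between 2 and 4 (Cre-positive) at -0.03, so the numbers were not taken as pairs. With domains chosen in the 4 germline lists (245 domains) the difference in signal share between migratory and resident cells was 0.016 (p = 0.877, exact permutation), and 5 results on 3 named domains, cut to other limits there, reversed: Plekhg6 to 0.2 for migratory against resident cells and to 0.2 for migDC2 against cDC2, Dnal1 with Pnma1 and Mideas to 0.04 and Il1r2 (2) to 0.26 for migDC2 against cDC2, and Il1r2 (2) to -0.4 for cDC2 against cDC1. The cause was not tested. Within plain titles the signal share difference was -1.101 and the density difference -0.013.

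The counts of higher and lower domains, in the order migratory against resident, migDC1 against cDC1, migDC2 against cDC2, cDC2 against cDC1 and DN migDC against migDC2, moved with the number of domains. At 2500 bp (2368 domains) they were 562 and 1451, 590 and 1138, 433 and 1448, 1151 and 243, 57 and 150. At 4000 bp (519) they were 155 and 312, 165 and 258, 128 and 289, 270 and 47, 8 and 52. Chosen in Cre-negative and measured in Cre-positive libraries they were 190 and 492, 171 and 354, 149 and 451, 261 and 39, 3 and 14, with the roles exchanged 198 and 493, 193 and 322, 142 and 469, 274 and 38, 0 and 2, and chosen in germline lists 69 and 107, 79 and 63, 49 and 119, 114 and 5, 1 and 4. Median ratio scaling gave 347 and 256 for cDC2 against cDC1 and 166 lower for DN migDC against migDC2. With 6 lists required, 56 were lower in cDC2, and DN migDC against migDC2 gave 12 and 50; it gave 13 and 43 in plain titles, 47 lower in lettered ones and 16 higher with a mean of at least 5 ppm.

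By genotype, no domain was lower in Cre-positive cells with 6 lists, with the 28 floxed libraries alone or with germline-chosen domains (0 each). Higher calls were 1 with 2 lists, at 2500 bp and with stretches joined over 100 bp. Peaks of at least 400 gave 2 lower, lists of equal length 2 higher and 2 lower, and plain titles 8 higher and 6 lower (10.5% of all regions passed there).

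Leaving out 1 library gave 1217 to 1269 domains, a signal share difference of -1.879 to -1.553 between migratory and resident cells and -0.089 to 0.103 between genotypes, and density differences of -0.054 to -0.041 and 0.0 to 0.009. The counts were 300 to 334 higher and 723 to 768 lower (migratory against resident), 312 to 350 and 564 to 620 (migDC1 against cDC1), 241 to 268 and 709 to 764 (migDC2 against cDC2), 522 to 623 and 107 to 151 (cDC2 against cDC1), and 9 to 49 and 61 to 106 (DN migDC against migDC2). By genotype 0 to 2 were higher (2 without migDC1 Cre-negative 2) and 0 to 1 lower (0 without any of 18 libraries). Since the lists hold no read counts, the absence of a peak cannot be told from a peak below a list's threshold. Domains with a peak only in plain titles were also left out, and scaffold signal added to the total; these alternatives and the replicate block were chosen after seeing the data.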

Other observations

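Outside the autosomes, peaks on unplaced scaffolds took 0.228 to 1.259% of the signal of plain-titled libraries, 0.054 to 0.189% of that of lettered ones, 0.146% and 0.258% in germline KO and 0.19% and 0.195% in germline WT libraries. Among plain titles the migratory libraries had 0.228 to 0.524% and the resident ones 0.445 to 1.259%.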
